A study of Mus musculus with 8 samples.

Results

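The venous marker genes Lcn2, Lrg1, Ackr1, Vwf, Slc38a5 and Tmem252 were followed in endothelial cells of mouse cortex. They are 6 of the 31053 genes in each deposited matrix and were matched by symbol. They had been picked because earlier results on these data showed them in veins or showed them to differ between groups, so their levels and differences in endothelial cells are given as a description. Where a test across all genes is quoted for them, it stands beside the share of all genes that passed and supports nothing. Single-cell RNA was counted as unique molecular identifiers (UMIs, 1 per captured transcript) in cortical plate of mice 8 weeks old, with the brains of 3 mice pooled per group. The groups were Lama4-/- mice, which lack the laminin alpha 4 chain, wild-type (WT) controls of those mice (here Lama4 WT), mice labelled Tek-Cre:Lama5-/-, in which laminin alpha 5 is removed by a Cre driven from the endothelial and blood lineage promoter of Tek, and a separate WT control group for these (here Lama5 WT). Whether either WT carries a Cre or a floxed allele is not given in the labels, and each group had 2 samples. Both Lama4-/- samples held identical values and were counted as 1 library, which left 7 libraries. All 6 genes passed the filter on low counts in both tested comparisons. Libraries of a group came from 1 pool of brains, so every standard error and p-value measures only the spread between these libraries, which may be technical.

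Veins of the brain are lined by endothelial cells that differ from those of capillaries and arteries along a continuous axis, and they are the main site where leukocytes leave the blood. Lcn2 encodes lipocalin-2, an iron-siderophore binding protein induced by inflammation. Lrg1 encodes a secreted leucine-rich glycoprotein that modulates TGF-beta signalling in vessels, and Ackr1 encodes a chemokine-scavenging receptor that marks venules. Vwf encodes von Willebrand factor, the platelet-binding protein stored in Weibel-Palade bodies, Slc38a5 a glutamine transporter, and Tmem252 a small membrane protein of less studied function. Lcn2 and Lrg1 are also known as acute-phase genes and as products of neutrophils.

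Of the barcodes deposited, 47239 of 56961 passed the filters on cells, and 26244 of these fell in 9 of 34 clusters that carried endothelial markers. All 8 endothelial markers were present in every library of this class, Cldn5 at 4936 to 6225 and Pecam1 at 666 to 793 CPM (UMI counts scaled to a fixed total per library). The class held 2174 to 4982 cells and 16438682 to 22099543 UMIs per library. Cells were shallower in the Lama5 experiment, with a median of 2609 to 3320 UMIs against 4760.5 to 5898, and transcripts of the rRNA-rich loci Gm42418 and AY036118 took 3.94% and 4.01% of UMIs in Lama5 WT, 6.98% and 7.59% in Tek-Cre:Lama5-/-, and 0.789% to 0.809% in the Lama4 experiment. Lama4 itself stood at 43.2 and 42.4 CPM in Lama4 WT and at 0.0558 in Lama4-/- (1 UMI), and Lama5 at 43.6 and 43.2 in Lama5 WT against 24.0 and 26.3 in Tek-Cre:Lama5-/-. Kept cells of any pair of libraries shared 5 to 22 barcodes.

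Promoter sequence is shown for 3 of the genes because Lrg1 differed between groups while Slc38a5 and Tmem252 differed little. RefSeq's table for GRCm38.p6 held the start of all but Vwf. Within 250 bases before the start, the ETS core AGGAAG occurred on either strand in Lcn2, Lrg1 and Ackr1, 3 of 5, against 29.5% of 32851 promoters, and the C/EBP pattern TTGCNNAA in Lcn2 and Slc38a5, against 9.56%. No match was found for the STAT pattern TTCNNNGAA (7.02% of promoters), for the NF-kappaB motif (3.90%) or for TATAAA (12.4%), in any of the 5. No matched letters overlap another match, and a match describes letters only. Each stretch is a part of that window outside the gene's annotated exons, 5′ to 3′ on the gene's strand, with matched letters in capitals (AGGAAG in Lrg1, where 2 of its 3 matches fall in the stretch, and TTGCAGAA in Slc38a5, with none in Tmem252). The stretches are Lrg1 at chr17:56122002-56122196 on the minus strand, Slc38a5 at chrX:8271261-8271380 and Tmem252 at chr19:24673758-24674007, both on the plus strand.
Lrg1: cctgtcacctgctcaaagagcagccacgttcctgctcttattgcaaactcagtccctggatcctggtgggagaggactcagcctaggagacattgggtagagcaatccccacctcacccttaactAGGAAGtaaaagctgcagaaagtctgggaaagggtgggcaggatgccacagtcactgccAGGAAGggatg
Slc38a5: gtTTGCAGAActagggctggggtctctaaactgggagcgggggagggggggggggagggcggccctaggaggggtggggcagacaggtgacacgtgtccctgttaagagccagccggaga
Tmem252: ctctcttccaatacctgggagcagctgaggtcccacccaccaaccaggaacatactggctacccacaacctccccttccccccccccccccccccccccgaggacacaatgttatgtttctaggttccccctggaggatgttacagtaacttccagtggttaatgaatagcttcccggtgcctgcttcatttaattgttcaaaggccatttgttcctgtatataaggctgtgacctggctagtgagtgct

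Summed over the endothelial-like cells of each library, Lcn2, Lrg1 and Ackr1 differed more between Tek-Cre:Lama5-/- and Lama5 WT than Vwf, Slc38a5 and Tmem252 did. The first 3 were lowest in Lama5 WT of the 4 groups and stood higher in Tek-Cre:Lama5-/- than in that WT, with ratios of 5.68 (Lcn2), 2.41 (Lrg1) and 2.65 (Ackr1). For the other 3 this ratio lay between 0.905 (Slc38a5) and 1.07 (Vwf). Vwf was also lowest in Lama5 WT of the 4 groups, so it shared the direction of the first 3 but not the size. Values are CPM, with totals scaled by TMM over the 7 libraries. Levels of different genes are not ranked here, because capture can differ between transcripts.

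Lcn2 (ENSMUSG00000026822, chr2:32384633-32388252, minus strand) stood at 53.3 and 53.8 CPM in the libraries of Tek-Cre:Lama5-/- and at 10.2 and 8.66 in Lama5 WT. It stood at 124 and 116 in Lama4 WT and at 98.3 in Lama4-/-. No groups overlapped, and the Tek-Cre:Lama5-/- libraries lay above their own WT and below the other WT. The log2 fold change of Tek-Cre:Lama5-/- against Lama5 WT was 2.51 (SE 0.0722), from 1762 and 401 UMIs.

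Lrg1 (ENSMUSG00000037095, chr17:56119678-56122001, minus strand) stood at 11.2 and 9.47 CPM in Tek-Cre:Lama5-/-, 4.85 and 3.73 in Lama5 WT, 53.2 and 48.5 in Lama4 WT and 51.4 in Lama4-/-. The Lama4-/- library lay between its own WT libraries. Tek-Cre:Lama5-/- was above its WT by 1.27 (log2, SE 0.139) and below both Lama4 WT libraries.

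Ackr1 (ENSMUSG00000037872, chr1:173331886-173333750, minus strand) stood at 3.39 and 4.10 CPM in Tek-Cre:Lama5-/-, 2.26 and 0.526 in Lama5 WT, 18.6 and 11.5 in Lama4 WT and 36.2 in Lama4-/-. Both knockouts lay above both libraries of their own WT, and Lama4-/- was the highest library of the 7. The Lama5 WT libraries differed from each other beyond their counting intervals (1.68 to 2.99 and 0.263 to 0.942), on 49 and 11 UMIs, and the log2 fold change of 1.40 (SE 0.288) became 2.81 without Lama5 WT replicate 1 and 0.72 without Lama5 WT replicate 2. Of the 49 UMIs in the first of these libraries, 39 came from 5 cells.

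Vwf (ENSMUSG00000001930, chr6:125546774-125686679, plus strand) stood at 177 and 169 CPM in Tek-Cre:Lama5-/-, 160 and 164 in Lama5 WT, 356 and 345 in Lama4 WT and 368 in Lama4-/-. Tek-Cre:Lama5-/- and its WT did not overlap but lay 0.10 apart on the log2 scale (SE 0.0302), and the libraries of the Lama4 experiment were all above those of the Lama5 experiment.

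Slc38a5 (ENSMUSG00000031170, chrX:8271133-8280179, plus strand) stood at 174 and 166 CPM in Tek-Cre:Lama5-/-, 185 and 192 in Lama5 WT, 249 and 245 in Lama4 WT and 248 in Lama4-/-. Here Tek-Cre:Lama5-/- was below its WT, by a log2 fold change of -0.14 (SE 0.0302), and Lama4-/- lay within its WT.

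Tmem252 (ENSMUSG00000048572, chr19:24674008-24682233, plus strand) stood at 539 and 516 CPM in Tek-Cre:Lama5-/-, 567 and 560 in Lama5 WT, 570 and 545 in Lama4 WT and 691 in Lama4-/-. Tek-Cre:Lama5-/- was below its WT by a log2 fold change of -0.09 (SE 0.0217), and Lama4-/- was above both libraries of its WT.

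**Figure D1:**
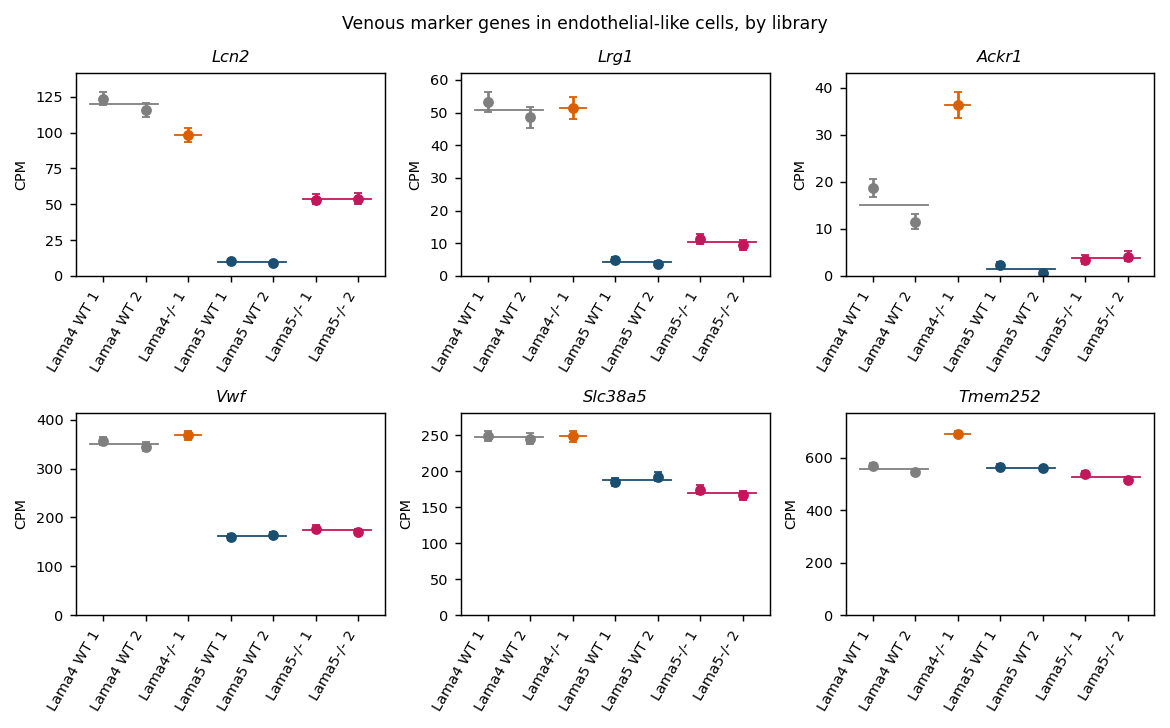
Level of each gene in endothelial-like cells by library, in CPM on linear axes from 0. Points are libraries with exact Poisson 95% intervals, which cover counting error only, and lines are group means, with Lama5-/- standing for Tek-Cre:Lama5-/-. The Lama5 WT libraries are lowest for Lcn2, Lrg1, Ackr1 and Vwf, and the libraries of Vwf, Slc38a5 and Tmem252 lie within a narrower range relative to their level.

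In edgeR's quasi-likelihood test with Benjamini-Hochberg adjustment over 13180 genes, all 6 genes had an adjusted p under 0.05 between Tek-Cre:Lama5-/- and Lama5 WT, 4 higher and 2 lower, where 19.8% of all genes did so, 10.9% higher and 8.9% lower. Groups that do not overlap were as common as 27.9% of genes higher and 29% lower. Past 2-fold were Lcn2, Lrg1 and Ackr1, all higher, against 0.22% of 12278 genes higher and 0.0896% lower. The genes were chosen with this contrast known, so nothing is read from these counts.

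For Lcn2, Lrg1, Ackr1, Vwf and Slc38a5 the WT groups of the 2 experiments lay further apart than either knockout lay from its own WT. Against Lama4 WT, Lama5 WT had log2 fold changes of -3.66 for Lcn2 (SE 0.0664), -3.55 for Lrg1 (SE 0.0970), -3.42 for Ackr1 (SE 0.331), -1.10 for Vwf (SE 0.0311) and -0.38 for Slc38a5 (SE 0.0313). Tmem252 stood at 0.02 (SE 0.0295). Over all 13256 genes tested in this comparison, 55.6% had an adjusted p under 0.05 and 26.6% were lower, and nothing is read from the members' share of these. Past 2-fold lower were Lcn2, Lrg1, Ackr1 and Vwf, against 1.11% of 12245 genes. Experiment and WT group coincide, so strain, batch, depth and handling cannot be told apart in these differences.

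Each knockout was also set against the WT of the other experiment, with no test. Tek-Cre:Lama5-/- over Lama4 WT gave ratios of 0.446 for Lcn2, 0.203 for Lrg1, 0.245 for Ackr1, 0.495 for Vwf, 0.689 for Slc38a5 and 0.946 for Tmem252. Lcn2, Lrg1 and Ackr1, higher than in their own WT, thus still lay below the other WT. Lama4-/- over Lama5 WT gave 10.4 for Lcn2, 11.96 for Lrg1, 25.7 for Ackr1, 2.27 for Vwf, 1.32 for Slc38a5 and 1.23 for Tmem252. In the first of these comparisons Lcn2, Lrg1, Ackr1 and Vwf were past 2-fold lower, against 1.09% of 12367 genes lower and 7.36% higher. In the other they were past 2-fold higher, against 1.98% of 12323 genes higher and 6.35% lower.

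Lama4-/- had 1 library and was not tested against its own WT. The ratio of Lama4-/- to Lama4 WT was 2.38 for Ackr1 (exact 95% interval for counting error 2.13 to 2.66), 1.24 for Tmem252 (1.21 to 1.27), 1.05 for Vwf (1.02 to 1.08), 1.01 for Lrg1 (0.933 to 1.09), 1.00 for Slc38a5 (0.969 to 1.04) and 0.819 for Lcn2 (0.775 to 0.865). Ackr1 was the 1 gene past 2-fold, which 0.386% of genes were in the higher direction and 0.143% in the lower. The set of cells moved this value. A gate on marker UMIs in place of clusters kept cells in which at least 4 endothelial markers and fewer than 3 markers of any other class were detected. In these cells Ackr1 stood at 19.3 CPM in Lama4-/- and at a mean of 13.5 in its WT, a ratio of 1.43. The ratio of Lrg1 was then 0.727, that of Lcn2 0.598 and that of Tmem252 1.07. That gate left out 11.4% of endothelial-like cells of Lama4-/- and 14.6% and 12.9% of Lama4 WT, and the cells left out held 57.9%, 38.3% and 24.8% of the Ackr1 UMIs in the same order. The cells left out were deeper, with medians of 6956.5 to 11242.5 UMIs against 4630 to 5636.5 for the cells inside. Over endothelial-like cells thinned to 2000 UMIs, pericyte markers summed to 141 CPM in Ackr1-positive cells of Lama4-/- (32 cells), against 39.6 in negative cells. In Lama4 WT this was 219 against 40.4 in replicate 1 (16 cells) and 0 against 34.6 in replicate 2 (17 cells). The part of depth and of other cells' markers in the ratio was not tested.

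A sum over cells can rise because more cells hold a transcript or because each holds more. To compare both at 1 depth, each cell was thinned at random to 2000 UMIs, and cells with fewer were left out (135 to 197 per library in the Lama4 experiment, 708 and 791 in Lama5 WT, 1089 and 1387 in Tek-Cre:Lama5-/-). A higher level in a cell also raises the share of cells with a UMI, and UMIs per positive cell cannot fall below 1. Share and level are therefore not fully separated for genes with few UMIs. Lcn2, Lrg1 and Ackr1 were held by a few cells in 100 or fewer, and Vwf, Slc38a5 and Tmem252 by many. Microglia-like cells, which should lack these genes, gave a background after the same thinning, at median depths of 2840 to 7259 UMIs before it. A UMI was present in 0 to 0.291% of these cells for Lcn2, 0 to 0.216% for Lrg1 and 0 to 0.0707% for Ackr1. For Vwf this was 0 to 0.707%, for Slc38a5 0 to 0.436% and for Tmem252 0.216% to 1.16%. Whether this background came from free RNA or from doublets was not tested.

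A UMI of Lcn2 was present in 2.53% (exact binomial 95% interval 2.04% to 3.096%) and 2.92% (2.38% to 3.55%) of endothelial-like cells in Tek-Cre:Lama5-/- and in 0.702% (0.474% to 1.00%) and 0.716% (0.484% to 1.02%) in Lama5 WT. Shares were 3.46% and 2.795% in Lama4 WT and 2.68% in Lama4-/-. Positive cells held 2.11 and 1.94 UMIs each in Tek-Cre:Lama5-/-, 1.23 and 1.17 in Lama5 WT, 2.35 and 2.60 in Lama4 WT and 2.20 in Lama4-/-. Both the share and the level were therefore lowest in Lama5 WT, with no overlap. At this depth the share made up 72.1%, on the log scale, of the 6.46-fold difference between Tek-Cre:Lama5-/- and its WT. The share differed 3.84-fold and the level per positive cell 1.68-fold. Cells with 5 or more Lcn2 UMIs after thinning numbered 9 and 10 in Tek-Cre:Lama5-/- and 0 in each Lama5 WT library. Without thinning, shares were 4.06% and 3.73% against 1.73% and 1.91%, and 7.49%, 6.26% and 5% in the deeper Lama4 experiment. The 189 and 177 cells positive without thinning in Tek-Cre:Lama5-/- held 910 and 852 Lcn2 UMIs. In Lama5 WT, 86 and 95 cells held 220 and 181. Without thinning the share thus differed less and the level per positive cell more, so the split of 72.1% depends on the depth.

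After thinning, Lrg1 differed between Tek-Cre:Lama5-/- and its WT in its share, with a ratio of 2.15. The ratio of its level per positive cell was 0.996, at levels close to the lowest possible value of 1 UMI. It was found in 0.814% and 0.715% of cells in Tek-Cre:Lama5-/-, 0.281% and 0.430% in Lama5 WT, 2.53% and 1.57% in Lama4 WT and 1.77% in Lama4-/-. Positive cells held 1.24 and 1.21 UMIs in Tek-Cre:Lama5-/- and 1.5 and 1.06 in Lama5 WT, which overlap, against 1.72 to 1.97 in the Lama4 experiment.

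Ackr1 was found in 0.337% and 0.387% of cells in Tek-Cre:Lama5-/-, 12 and 13 cells. In Lama5 WT it was found in 5 of 4274 cells of replicate 1 (0.117%) and in 0 of 4190 cells of replicate 2, which allows a share of up to 0.0716% of cells thinned to this depth. Without thinning, 6 of the 4981 cells of that library held an Ackr1 UMI (0.12%). Lama4-/- had it in 1.45% of cells (0.996% to 2.04%) and Lama4 WT in 0.737% (0.422% to 1.19%) and 0.834% (0.486% to 1.33%). Of the 1.92-fold difference between Lama4-/- and its WT after thinning, 1.85-fold lay in the share and 1.04-fold in the level per positive cell. In cells chosen by the gate the ratio of shares was 1.28. Without thinning, 68 cells of Lama4-/- held 649 Ackr1 UMIs, against 41 cells with 392 and 48 cells with 218 in Lama4 WT. The level per positive cell of Lama4-/- was then near that of Lama4 WT replicate 1 and above that of replicate 2, so this split also depends on the depth.

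Among the widely detected genes, Slc38a5 was found in 17.9% and 18.4% of cells in Tek-Cre:Lama5-/- and in 21.7% and 22.5% in Lama5 WT, a ratio of shares of 0.819. With the rRNA-rich loci left out before thinning, this ratio was 0.849. Tmem252 was found in 47.1% and 46.0% against 52.6% and 53.8%, a ratio of 0.875, and Vwf in 15.7% and 16.6% against 14.9% and 15.5%, a ratio of 1.06. In Lama4-/- the share of Tmem252 was 48.2% against 50.8% and 51.0% in its WT, while its positive cells held 2.25 UMIs against 1.99 and 1.88, so the higher sum of Tmem252 there lay in the level per positive cell.

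**Figure D2:**
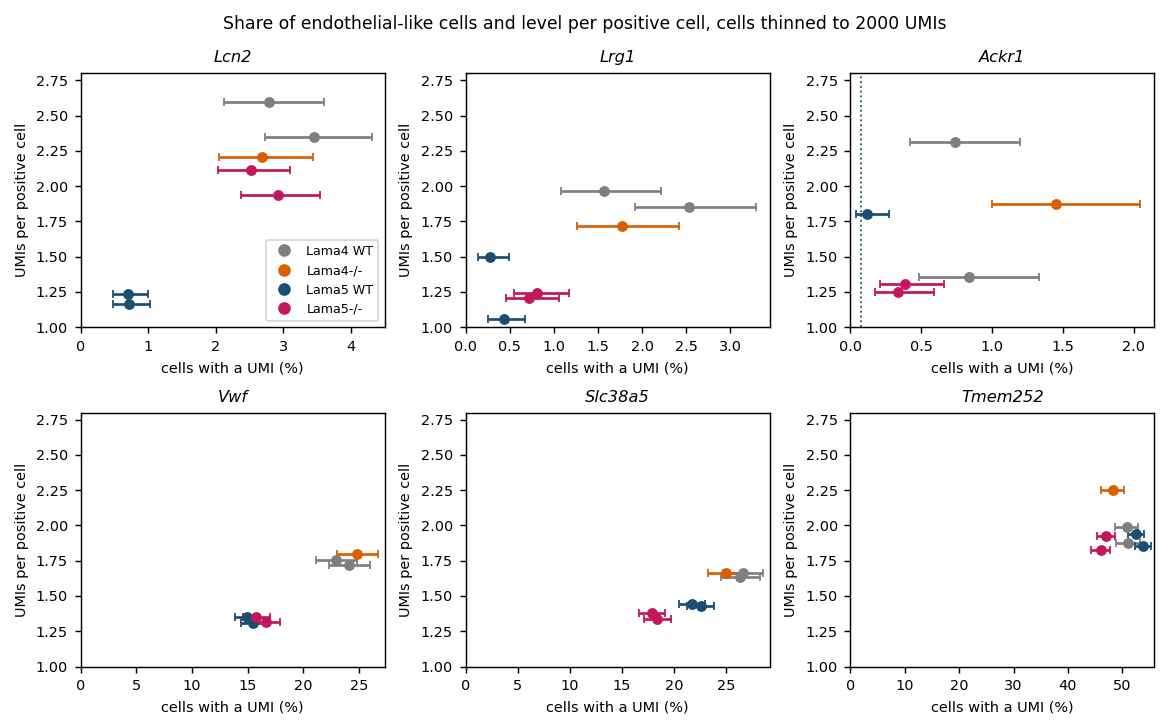
Share of endothelial-like cells with a UMI of each gene (horizontal, %, with exact binomial 95% intervals) against UMIs per positive cell (vertical), after thinning to 2000 UMIs, 1 point per library. The dotted line for Ackr1 is the limit of 0.0716%, at the thinned depth, for the Lama5 WT library with 0 positive cells after thinning. Lcn2 moves on both axes between Lama5 WT and Tek-Cre:Lama5-/-, while Slc38a5, Tmem252 and Vwf stay close together within each experiment.

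A few cells carried much of the first 3 genes. Without thinning, the 5 cells highest in Lcn2 held 37.9%, 37.1% and 31.3% of its UMIs in the libraries of the Lama4 experiment, 33.6% and 26.0% in Lama5 WT, and 27.1% and 26.2% in Tek-Cre:Lama5-/-, with up to 325 UMIs in 1 cell. For Tmem252 the 5 highest cells held 2.16% to 10.4% of UMIs, with 10.4% in Lama4-/- against 5.82% and 5.71% in its WT. Among clusters made without the 6 genes, 1 cluster of 659 cells, 2.51% of the endothelial-like cells and 9.26% of their UMIs, held 74.1% of Lcn2 UMIs, 83.6% of Lrg1, 86.6% of Ackr1, 40.3% of Vwf, 29.9% of Slc38a5 and 21.9% of Tmem252. Of its cells, 631 came from the Lama4 experiment and 28 from the Lama5 experiment. There another cluster, 26.0% and 26.1% of the class in Lama5 WT and 19.8% and 17.1% in Tek-Cre:Lama5-/-, held 83.6% to 96.2% of Lcn2 UMIs. Its Lcn2 level was 22.2 and 19.5 CPM in Lama5 WT and 131 and 149 in Tek-Cre:Lama5-/-, so it was smaller but far richer in Lcn2. With the mix of clusters held at that of the WT, the Lcn2 ratio of Tek-Cre:Lama5-/- was 6.23 against 5.38 as found, and the Ackr1 ratio of Lama4-/- 2.59 against 2.46. These ratios are of levels on totals without TMM scaling, so they differ slightly from those above.

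A gene of the venous list that is no member shows in which cells the genes were found. Il1r1, the interleukin-1 receptor of brain endothelium, had an edgeR log2 fold change of -0.01 (adjusted p = 0.923) between Tek-Cre:Lama5-/- and Lama5 WT and was found in 8.29% to 10.2% of cells in every library. It was chosen after its values were seen. Among cells with an Il1r1 UMI, Lcn2 was found in 14.8% and 16.8% in Tek-Cre:Lama5-/-, 4.89% and 4.29% in Lama5 WT, 23.3% and 14.4% in Lama4 WT and 20.1% in Lama4-/-. Among cells without one, the shares were 1.13% and 1.42% against 0.259% and 0.318%, and 1.09% to 1.67% in the Lama4 experiment. Lcn2 was thus higher in Tek-Cre:Lama5-/- in both kinds of cell, and the share of Il1r1 cells was 10.2% and 9.74% there against 9.57% and 10.02% in its WT. Lrg1 was found in 6.04% and 5.81% of Il1r1 cells of Tek-Cre:Lama5-/- and in 2.44% and 2.62% of those of Lama5 WT. Ackr1 was found in 11.4% of Il1r1 cells of Lama4-/- and in 5% and 6.11% of those of Lama4 WT. Vwf (33.9% and 37.6% against 33.7% and 37.4%) and Slc38a5 (41.5% and 46.5% against 45.0% and 46.7%) overlapped between Tek-Cre:Lama5-/- and its WT in Il1r1 cells. The same was read for Nr2f2, also of the venous list. Lcn2 was found in 7.84% and 10.06% of Nr2f2 cells of Tek-Cre:Lama5-/- and in 3.98% and 3.58% of those of Lama5 WT. For Lrg1 this was 3.92% and 3.25% against 0.852% and 3.03%, so the groups nearly met. Ackr1 was found in 7.41% of Nr2f2 cells of Lama4-/- against 5.26% and 5.03% in Lama4 WT.

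**Figure D3:**
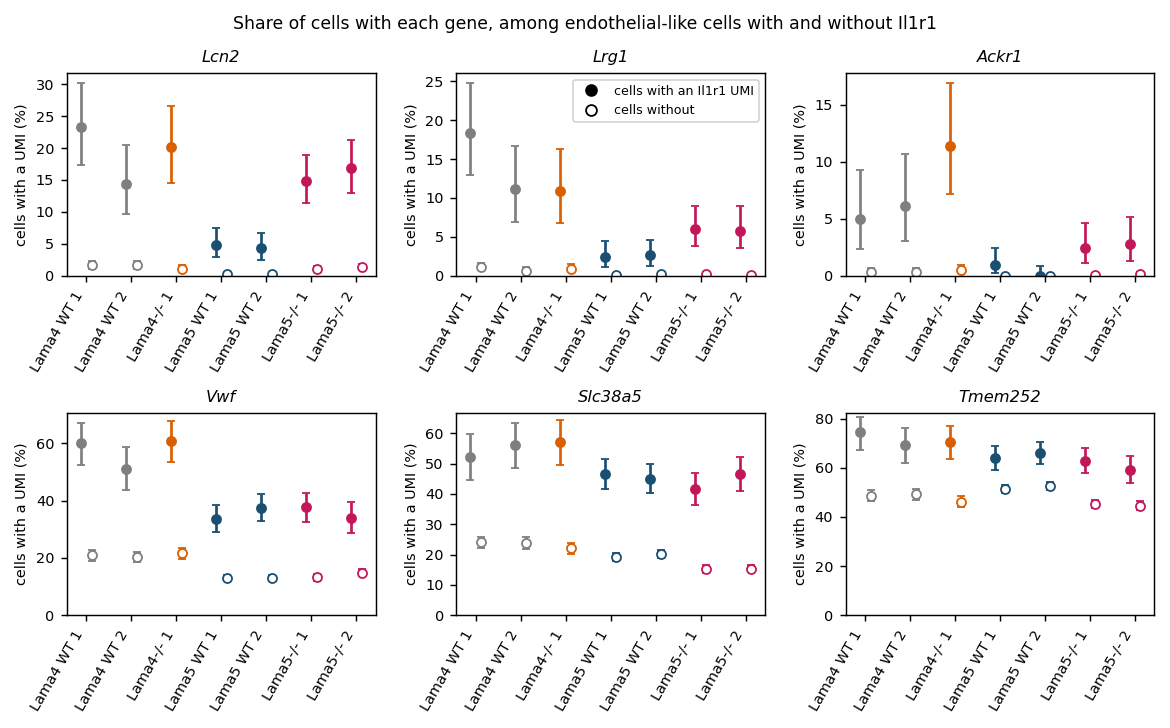
Share of endothelial-like cells with a UMI of each gene among cells with (filled) and without (open) an Il1r1 UMI, by library, after thinning to 2000 UMIs, with exact binomial 95% intervals. Filled points lie above open points for each gene in every library but Lama5 WT 2 for Ackr1, where both are at 0, and the filled Lcn2 points of Lama5 WT lie below all other filled points for Lcn2.

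The genes were found together more often than their shares alone would give. Over the 7 libraries, 47 cells held both Lrg1 and Ackr1 where 1.44 were expected, a ratio of 32.6. For Lcn2 with Ackr1 the ratio was 22.7 (59 cells) and for Lcn2 with Lrg1 18.8 (103 cells). Each of these ratios was above 1 in every library where it was defined, 7 for Lcn2 with Lrg1 and 6 for pairs with Ackr1. This held for 1 random draw of the thinning. With another draw, Lcn2 with Lrg1 was above 1 in 6 libraries and 0 in the lowest, with a summed ratio of 18.7. It was also 0 in the lowest library with the rRNA-rich loci left out or with thinning to 1000 UMIs. Lrg1 with Ackr1 was 0 in the lowest library under the gate, with a summed ratio of 42.3. The ratio of Lcn2 with Lrg1 was 21.6 in Tek-Cre:Lama5-/- (31 cells), 23.5 in Lama5 WT (5 cells), 17.2 in Lama4 WT (48 cells) and 18.2 in Lama4-/- (19 cells).

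Pairs of a narrow and a wide gene lay lower. With Vwf the ratios were 3.08 for Lcn2, 3.80 for Lrg1 and 3.85 for Ackr1. With Slc38a5 they were 2.72, 2.797 and 2.82, and with Tmem252 1.47, 1.71 and 1.85. Pairs among the wide genes were close to 1, at 1.31 for Vwf with Slc38a5, 1.14 for Vwf with Tmem252 and 1.13 for Slc38a5 with Tmem252. Cells of 1 library share its depth and free RNA, and a gene's share limits the ratio that is possible, so ratios of rare and common genes are not on 1 scale.

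**Figure D4:**
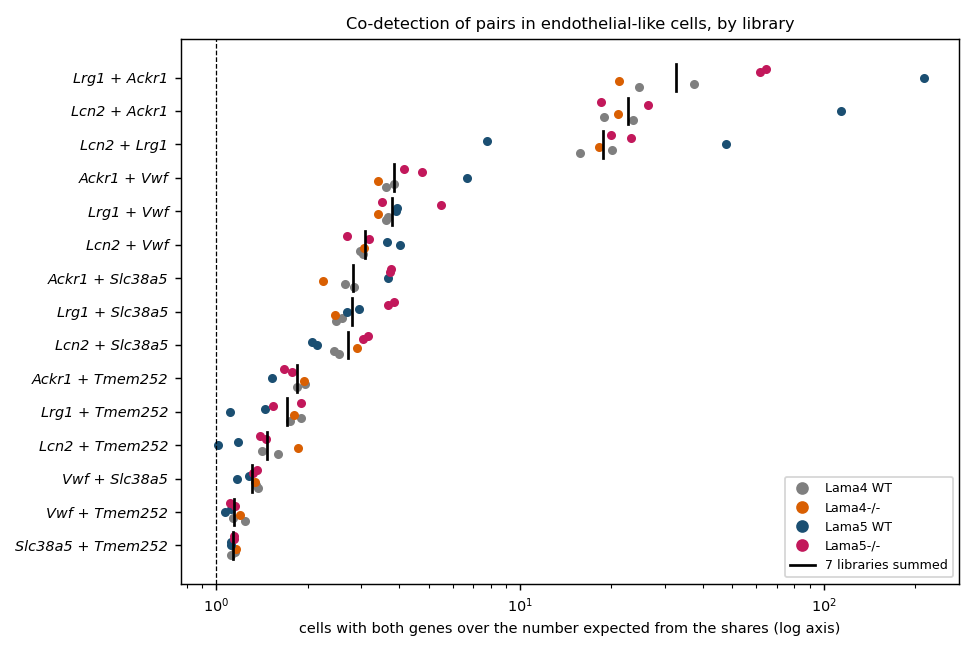
Cells holding both genes of a pair over the number expected from the shares of each, for 15 pairs, on a log axis. Points are libraries, black bars the 7 libraries summed, and the dashed line marks 1. The 3 pairs among Lcn2, Lrg1 and Ackr1 have the highest bars, from 18.8 to 32.6.

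The cells that held these genes also differed in other genes. Members and lists were both chosen with earlier results of these data known, so this is a description and no independent support. The venous list without the 6 members (15 genes, among them Vcam1, Nr2f2 and Ephb4) was higher in positive than in negative cells for each of the 6 genes, in 6 of 6 libraries with positive cells for Ackr1 and in 7 of 7 for the others. Its median over libraries, in UMIs per 10000 UMIs, was 80.7 in Ackr1-positive against 23.6 in Ackr1-negative cells, 72.2 against 23.6 for Lrg1, 56.2 against 23.5 for Lcn2, 30.8 against 21.8 for Slc38a5, 28.0 against 23.0 for Vwf and 25.5 against 21.8 for Tmem252.

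Arterial and capillary genes split the group. The arterial list (15 genes such as Gkn3, Mgp and Bmx) was higher in Vwf-positive cells in 7 of 7 libraries, at a median of 50.3 against 27.3, and lower in Slc38a5-positive cells in 7 of 7, at 10.8 against 37.5. It was also lower in Lcn2-positive and Lrg1-positive cells of all 7 libraries, at 13.8 against 32.6 and 14.6 against 32.3. The capillary list (13 genes such as Mfsd2a and Slc22a8) was higher in Slc38a5-positive cells in 7 of 7 libraries, at 140 against 124, and lower in the positive cells of each of the other 5 genes, with 68.3 against 127 for Lrg1. In these cells Vwf thus went with venous and arterial genes, Slc38a5 with venous and capillary genes, and Lcn2 and Lrg1 with venous genes alone of these 3 lists. For Ackr1 the arterial list was higher in positive cells in 1 of 6 libraries.

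Ranked by the mean of within-library Pearson correlations over thinned endothelial-like cells, among 8785 candidate genes, genes most like Lcn2 were Ptgs2 (cyclooxygenase-2, 0.303), Il1r1 (0.290), Vcam1 (0.261) and Ch25h (0.260). Ptgs2 also came first for Lrg1 (0.267) and for Ackr1 (0.288, over 6 libraries). Genes most like Vwf included Vcam1 (0.331) and Il1r1 (0.258), those most like Slc38a5 were Tmsb10 (0.359), Car4 (0.266) and Net1 (0.239), and the gene most like Tmem252 was Il1r1, at only 0.152. These values are weak, the counts are sparse, and cells of a library share its depth and free RNA.

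Other genes of the same biology were read from lists in the comparison of Tek-Cre:Lama5-/- with Lama5 WT (edgeR's quasi-likelihood test, adjusted over all genes). In the venous list, 13 of 15 genes were tested, of which 6 rose and 1 fell, with a median log2 fold change of 0.20 against -0.0027 over all genes, of which 10.9% rose and 8.9% fell. Plvap, a fenestral diaphragm protein, rose by 3.94 (adjusted p = 5.35e-14) from 0.370 and 0.335 to 4.62 and 6.44 CPM. Of its 79 and 102 UMIs in Tek-Cre:Lama5-/-, 33 and 41 came from 1 and 2 cells of a cluster of 19 cells led by Plvap, and without that cluster the rise was 3.18 (SE 0.334, adjusted p = 1.47e-09). Vcam1, the leukocyte adhesion molecule, rose by 0.69 (adjusted p = 1.56e-22) and Nrp2 by 0.33 (adjusted p = 8.40e-06). Emcn, endomucin, fell by 0.12 (adjusted p = 2.46e-05).

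In the acute-phase and cytokine response list, 11 of 20 tested genes rose and 2 fell, against 10.9% and 8.9% of all genes, with a median of 0.19. The chemokine genes Ccl2 and Cxcl1 rose by 0.84 (edgeR adjusted p = 0.0179) and 0.67 (edgeR adjusted p = 5.16e-15), and Ch25h, an oxysterol-forming enzyme, by 0.77 (edgeR adjusted p = 2.21e-11). Vcam1 is among the genes this list shares with the venous list, so the counts of these lists are not separate. Cebpd, a transcription factor of the acute-phase response, and the oncostatin M receptor gene Osmr fell by 0.14 (adjusted p = 6.13e-05) and 0.10 (adjusted p = 0.0400). Against the same shares of all genes (10.9% higher, 8.9% lower), 2 of 13 capillary genes rose, Tfrc by 0.41 (adjusted p = 1.27e-16) and Mfsd2a by 0.08 (adjusted p = 0.0313), and 7 fell, Slc7a5 the most, by 0.27 (adjusted p = 1.37e-13). Of 15 arterial genes, 6 rose and 0 fell, where 10.9% and 8.9% of all genes did so, among them Gkn3 by 0.46 (adjusted p = 9.65e-14) and Mgp by 0.43 (adjusted p = 1.57e-10), with a list median of 0.07 that was -0.04 without Tek-Cre:Lama5-/- replicate 2. With DESeq2, 2 arterial genes rose, and 3 did without Lama5 WT replicate 2, when 2 fell.

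Among known binding partners of the encoded proteins, 1 of 9 tested genes rose, Tgfbr1 by 0.25 (adjusted p = 0.00114), and 0 fell, against 10.9% and 8.9% of all genes. The partner list had 0 genes called with DESeq2. In the Weibel-Palade body list, 2 of 11 rose, Angpt2 by 0.53 (edgeR adjusted p = 0.000747) and Edn1 by 0.29 (edgeR adjusted p = 4.67e-13), and 0 fell, beside the same 10.9% and 8.9%. Edn1 is also in the arterial list. In Lama4-/-, with no test, Plvap was the 1 gene of these lists past 2-fold, at a log2 ratio of 1.87 to its WT, and list medians lay between -0.07 and 0.14 against 0.0057 over all genes. Of its 446 Plvap UMIs, 348 came from 11 cells of the cluster led by Plvap, against 177 of 196 from 3 cells and 53 of 68 from 1 cell in Lama4 WT, and outside that cluster the log2 ratio was 2.16, on 98 UMIs against 19 and 15. Choroid plexus-like cells also numbered 118 in Lama4-/- against 27 and 26 in its WT, and their part in this was not tested. The lists were chosen with earlier results of these data known, so their direction is not independent evidence.

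Outside endothelium, Lcn2 was highest in neutrophil-like cells, at 2746 CPM over the 7 libraries against 65.5 in endothelial-like cells, and Lrg1 stood at 96.5 against 26.1. All 8 neutrophil markers were detected in endothelial-like cells of the Lama4 experiment, with summed levels of 11.4 to 23.8 CPM, and in the Lama5 experiment they summed to 1.24 to 2.34, with Retnlg, Camp and Mmp8 at 0 in all 4 libraries. Endothelial-like cells held 5.19 to 27.6 Lcn2 UMIs per UMI of these markers, against 0.00684 to 0.0342 in neutrophil-like cells, where the ratio rests on 9 to 216 Lcn2 UMIs in libraries of the Lama5 experiment. The part of neutrophil RNA in endothelial Lcn2 was not tested. The neutrophil-like cluster had the MHC class II genes Cd74 and H2-Aa among its leading genes beside S100a8 and S100a9, and a finer clustering held a neutrophil-like cluster of 141 cells and an unnamed cluster of 168 cells led by Cd74 and H2-Aa, so its levels are of a mixed class. The 6 platelet markers, of interest for Vwf, summed to 4.86 to 9.24 CPM in endothelial-like cells, with 0 to 2 of them at 0. Erythroid markers summed to 284 and 287 CPM in endothelial-like cells of Lama5 WT and to 64.6 and 55.2 in Tek-Cre:Lama5-/-, and their part in the differences was not tested.

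Ackr1 counts outside endothelium are uncertain. Neuron or neuroblast-like cells held 65 Ackr1 UMIs in 541 cells, 18.0 CPM against 10.8 in endothelial-like cells. Cadm3, a neuronal adhesion gene on the same strand, overlaps Ackr1 in the annotation (chr1:173333258-173367695), and those cells held 206 Cadm3 UMIs. In endothelial-like cells Cadm3 gave 3 to 28 UMIs per library beside 11 to 649 of Ackr1. In the Lama5 WT library with 11 Ackr1 UMIs, Cadm3 also had 11.

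Of 5 other cell classes with at least 50 cells in each of the 7 libraries, smooth muscle-like cells were the 1 in which any of the genes passed the filter on low counts. Vwf stood at 51.4 and 43.0 CPM in Tek-Cre:Lama5-/- and 2.42 and 21.02 in Lama5 WT, a rise of 2.00 on the log2 scale (SE 0.473, edgeR adjusted p = 0.0382). Tmem252 stood at 107 and 108 against 6.30 and 39.0, a rise of 2.24 (SE 0.409, edgeR adjusted p = 0.0180). Of 10268 genes tested there, 8.85% passed, against 17.8% in astrocyte-like, 13.8% in microglia-like, 0.168% in pericyte-like and 1.26% in perivascular macrophage-like cells. This class included a cluster of 173 cells that also carried all 8 endothelial markers. Over the class, those markers moved the same way, from 158 and 1429 to 3750 and 3203 CPM in sum. Per 1000 UMIs of those markers, Vwf stood at 13.7 and 13.4 against 15.4 and 14.7, and Tmem252 at 28.5 and 33.8 against 40.0 and 27.3. The part in the rise of endothelial RNA, or of cells such as those of that cluster, was not tested.

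**Figure D5:**
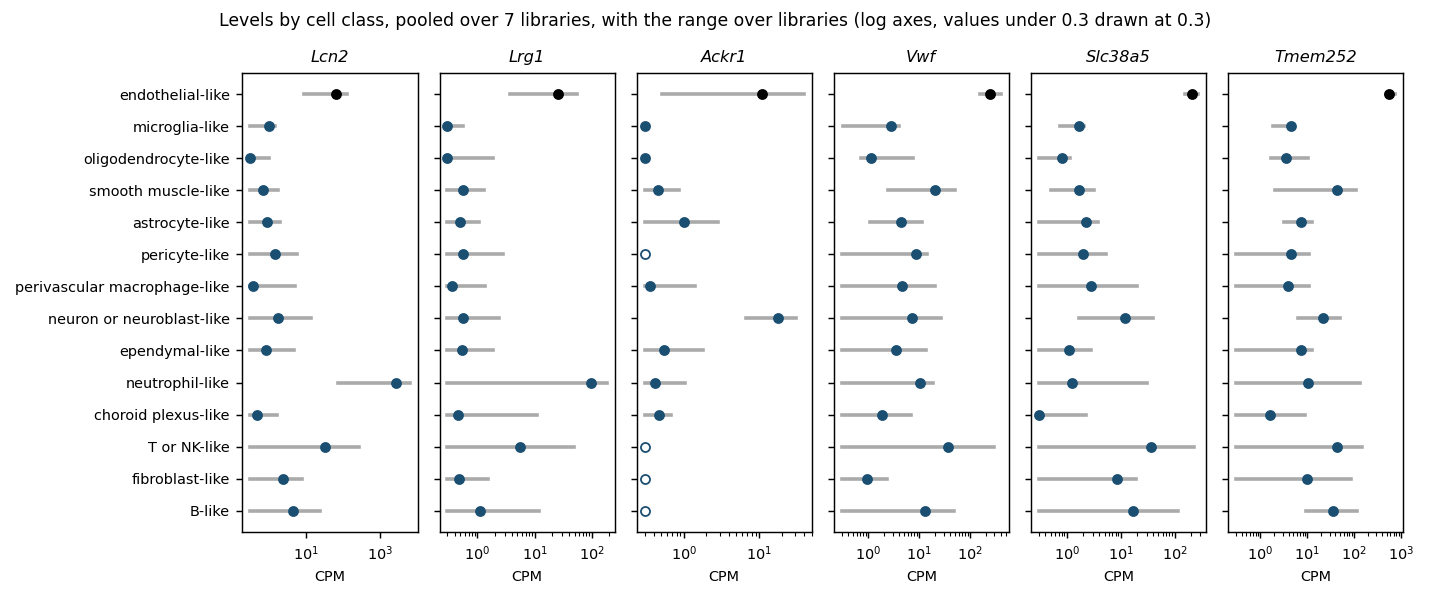
Level of each gene by cell class, in CPM on log axes. Points are the 7 libraries pooled, open where no UMI was counted, grey bars run from the lowest to the highest library, and values under 0.3 are drawn at 0.3. Lcn2 is highest in neutrophil-like cells, Ackr1 in neuron or neuroblast-like cells, and Vwf, Slc38a5 and Tmem252 in endothelial-like cells.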

How the data were processed

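Single-cell suspensions were profiled with the Chromium 3' v3 chemistry. The deposited matrices hold raw UMI counts per gene and barcode, made by the authors with Cell Ranger (3.1.0 per the file headers) on mm10, per the submitters' processing notes, which also name Seurat 3.1. The settings of the cell calling and the gene annotation are not given in the sources used here. Of 8 samples, 2 held identical values and were used as 1 library. Deposited totals ran from 35479306 to 48314458 UMIs per library.

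Cells with at least 500 genes and under 15% mitochondrial UMIs were kept. Doublets were scored against simulated pairs of cells and removed at 0.8% per 1000 cells. Cells were clustered with Leiden (igraph 0.11.9, resolution 1, 30 principal components, 2000 variable genes without the 6 genes), and clusters were named from marker lists. UMI counts were summed per library and class and tested with edgeR 4.0.16 (quasi-likelihood, TMM scaling, R 4.3.3), only where both groups had 2 libraries. Lama4-/- had 1 library and was given as ratios with counting intervals, against a 2-fold limit. For shares, each cell was thinned to 2000 UMIs. Intervals are exact at 95% and cover counting error only. In simulated counts for the comparison of Tek-Cre:Lama5-/- with Lama5 WT, 44% of genes changed 1.5-fold and 98% of those changed 2-fold were recovered, with 1 false call among 13175 genes. The simulation used 1 fixed dispersion for all genes, which was not estimated from these libraries. In the real counts Tmem252 passed at a log2 fold change of only -0.09 (SE 0.0217). The simulated recovery and false calls therefore do not describe the test on the real counts.

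The genes and lists were chosen with earlier results of these data known. Genes named beside them are at most the 4 of each list and direction with the largest changes past the adjusted p of 0.05, and up to 5 genes per member with the highest mean correlation of log(1 + UMIs) among those with a UMI in at least 1% of cells of every library. A gene that this rule would name is not reported here. Gene positions follow GENCODE M21 on GRCm38 (mm10), in which 31011 of 31053 gene IDs were found. Alternatives were DESeq2 1.42.0, other scalings and filters, other depths of thinning, a gate on marker UMIs in place of clusters, and leaving out each library. The use of Il1r1 and Nr2f2, the fixed mix of clusters and Plvap without the cluster it leads were added after the data were seen.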

Additional observations from a re-analysis of the deposited data

Results flagged for a closer look

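Lcn2 and Tmem252 lay in opposite directions in the 2 knockouts, each with no overlap between the knockout and its own WT. Lcn2 was higher in both Tek-Cre:Lama5-/- libraries than in Lama5 WT and lower in Lama4-/- than in both Lama4 WT libraries, at a ratio of 0.819. Tmem252 was lower in both Tek-Cre:Lama5-/- libraries and higher in Lama4-/-, at a ratio of 1.24, which was 1.07 in cells chosen by the gate on marker UMIs, and its 5 highest cells held 10.4% of its UMIs in Lama4-/- against 5.82% and 5.71% in Lama4 WT. Between Tek-Cre:Lama5-/- and Lama5 WT, 27.9% of 13180 genes were higher and 29% lower with no overlap. The share of genes with no overlap in Lama4-/-, or with opposite directions in the knockouts, was not counted. Lama4-/- had 1 library, and the difference between the knockouts was not tested, so nothing is read from these directions.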

How the results depend on the processing

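Of 144 log2 fold changes of the 6 genes under the alternatives, 5 moved by more than the spread between libraries of the groups. So did 6 of 54 Lama4-/- ratios, with counting error as the limit where it was larger. This limit is not the SE and is wide where replicates differ. The log2 fold change of 1.40 for Ackr1 (SE 0.288) was thus not counted as moved at 2.81 or at 0.72. Values near 0 crossed it: with the gate on marker UMIs the Lama4-/- log2 ratio was -0.45 for Lrg1 and -0.10 for Vwf, and without Lama4 WT replicate 2 those of Lrg1 and Slc38a5 were below 0. DESeq2 called 1000 genes between Tek-Cre:Lama5-/- and Lama5 WT against 2613 with edgeR, and 4815 against 7368 between the WT groups. Leaving out 1 library gave 1884 to 2000 and 6196 to 7072. The arterial list's median of 0.07 ran from -0.0356 without Tek-Cre:Lama5-/- replicate 2 to 0.21 without replicate 1. The causes were not tested. Same-numbered libraries did not deviate together (r = -0.00589 and -0.0232), and with the replicate block 2691 and 7372 genes were called. Of 59 ratios of UMIs per positive cell 23 moved by more than the spread between libraries, as did 16 of 75 co-detection ratios. For ratios of shares the limit was counting error, and 4 of 59 moved beyond it. The lowest count behind a level was 11 UMIs, for Ackr1 in Lama5 WT replicate 2, which limits its ratios.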
